A study of Homo sapiens with 112 samples.

Results

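Zinc and manganese transporters of the SLC30 and SLC39 families were followed in androgen-stimulated prostate cancer cells. The genes are the 10 rows of the RNA-seq table that carry the symbols SLC30A1, SLC30A4, SLC30A5, SLC30A7, SLC30A10, SLC39A1, SLC39A6, SLC39A7, SLC39A8 and SLC39A14, out of 58684 rows in all. They were chosen by symbol with the RNA-seq levels and treatment responses of these same libraries in view, so their values below are a description, without p-values. Both lines, VCaP and LAPC4, were derived from human prostate cancers and respond to androgen, and VCaP also carries the androgen-driven TMPRSS2-ERG fusion. All cells were first starved of steroid hormones in charcoal-stripped serum over 2 days, and then received vehicle (DMSO), 1 nM of the synthetic androgen R1881, or 1 nM R1881 together with the antiandrogen darolutamide at 0.5 µM or 2 µM. RNA was taken after 8 or 22 h. In VCaP cells the DMSO, R1881, 0.5 µM and 2 µM groups held 10, 10, 4 and 5 libraries at 8 h and 8, 9, 4 and 5 at 22 h. In LAPC4 cells they held 10, 10, 5 and 5 libraries at 8 h and 7, 10, 5 and 5 at 22 h. Each is a single established line. The methods name 5 biological replicates whereas some groups hold up to 10 libraries, and the labels do not say which libraries came from separate cultures, so the spread between libraries, and with it every call, may be partly technical.

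Zinc carriers fall into a pair of families that work in opposite directions. SLC30 proteins (ZnT) move zinc out of the cytosol, either across the plasma membrane or into vesicles and the Golgi apparatus, and SLC39 proteins (ZIP) move zinc into the cytosol from outside or from organelles. Some members carry manganese: SLC30A10 exports it from the cell, and SLC39A8 and SLC39A14 import it along with zinc. Normal prostate epithelium is known for very high zinc and for secreting citrate, and prostate cancer cells typically lose this zinc store.

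SLC30A1 is the member whose gene is a known target of MTF1, the zinc-sensing transcription factor that also drives the metallothionein genes. The 250 bases before its start site are shown next to those of the metallothionein genes MT1X and MT2A, because the same metal response element core can be looked for in each. Sequences come from RefSeq on GRCh38.p14, and capitals mark matches to TGCACNC or TGCGCNC on either strand.
SLC30A1, chr1:211579162-211579411, minus strand: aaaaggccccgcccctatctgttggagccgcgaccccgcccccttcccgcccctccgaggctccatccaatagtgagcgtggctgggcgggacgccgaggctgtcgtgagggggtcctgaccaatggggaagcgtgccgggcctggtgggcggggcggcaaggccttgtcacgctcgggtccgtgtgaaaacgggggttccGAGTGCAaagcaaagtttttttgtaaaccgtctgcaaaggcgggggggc
MT1X, chr16:56682220-56682469, plus strand: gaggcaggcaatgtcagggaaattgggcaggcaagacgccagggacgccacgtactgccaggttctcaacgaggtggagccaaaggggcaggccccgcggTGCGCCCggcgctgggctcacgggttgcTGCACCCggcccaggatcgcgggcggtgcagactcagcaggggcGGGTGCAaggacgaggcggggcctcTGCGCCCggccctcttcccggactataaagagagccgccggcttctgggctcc
MT2A, chr16:56608334-56608583, plus strand: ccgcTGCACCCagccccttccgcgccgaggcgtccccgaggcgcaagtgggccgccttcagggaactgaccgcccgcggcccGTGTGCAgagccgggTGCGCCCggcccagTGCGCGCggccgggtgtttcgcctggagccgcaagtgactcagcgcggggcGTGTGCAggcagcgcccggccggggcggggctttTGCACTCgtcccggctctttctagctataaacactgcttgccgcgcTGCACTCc
The core was found 1 time before SLC30A1, 4 times before MT1X and 7 times before MT2A. In windows of 300 bases around the start site, 29.6% of all 35116 RefSeq promoters held at least 1 match and 8.60% held 2 or more, and SLC30A1 held 2. Of the other members, SLC30A4 and SLC39A6 held 1 match, SLC39A1 and SLC39A8 held 1 in a single one of their annotated windows, and SLC30A5, SLC30A7, SLC30A10 and SLC39A7 held 0. SLC39A14 had no matching entry in the promoter table and was not searched. A match describes letters only, and no binding was measured here.

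The libraries held between 12188455 and 25201678 reads on genes, with a median of 20298766 in VCaP and 20001650 in LAPC4. ERG separated the lines as labelled, with 117 CPM (a gene's share of the reads of a library, after scaling of library sizes) or more in every VCaP library and at most 1 read in any LAPC4 library. KLK3, the androgen-induced gene for prostate-specific antigen, rose with R1881 at 22 h by 3.44 ± 0.067 on the log2 scale (± standard error) in VCaP and by 1.65 ± 0.080 in LAPC4. Of 8 marker genes of immune, endothelial and stromal cells, all 8 in VCaP and 7 in LAPC4 had a median below 1 CPM, and their summed level ran from 0.908 to 4.91 CPM. In VCaP at 22 h this sum was 1.49 to 3.04 CPM in DMSO and 2.84 to 4.91 CPM with R1881, where VWF, an endothelial gene, rose from 0.424 to 2.71 CPM and COL3A1, a stromal collagen, fell from 0.328 CPM to 0, while CD3E, which defines T cells, was at 0 in every VCaP library. The part of these genes in the transporter results was not tested.

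All 10 transporters passed the count filter in both lines, which counted libraries of any group. In VCaP SLC30A10 passed through its other groups, since its R1881 libraries at 22 h held 9 reads over 9 libraries. Levels of different genes were compared as CPM per kb of the main annotated transcript (MANE Select) at 22 h. In DMSO-treated VCaP cells SLC39A6 was highest at 223 ± 12.4 CPM per kb (SD, n = 8), followed by SLC39A7 at 78.4 ± 3.89, SLC30A4 at 46.3 ± 2.39, SLC39A1 at 35.8 ± 2.25, SLC30A5 at 33.5 ± 2.16, SLC39A14 at 10.5 ± 0.51, SLC30A1 at 6.89 ± 0.81, SLC30A7 at 2.53 ± 0.31, SLC39A8 at 1.99 ± 0.11 and SLC30A10 at 0.324 ± 0.045. Only the libraries of SLC39A1 and SLC30A5 overlapped as neighbours in this order, and the pair changed places when the union of all exons was taken as the length. In DMSO-treated LAPC4 cells SLC39A6 and SLC39A7 again led, at 163 ± 8.34 and 114 ± 4.33 CPM per kb (SD, n = 7), and SLC30A10 was again last at 0.346 ± 0.024. The middle of the order differed, since SLC39A8 stood at rank 5 with 32.9 ± 2.58 and SLC30A4 at rank 8 with 10.6 ± 0.98. Neighbours whose libraries overlapped in LAPC4 were SLC30A5 and SLC39A8, SLC39A8 and SLC39A14, and SLC30A7 and SLC30A4. With the union of exons SLC39A14 moved to rank 5 and SLC39A8 to rank 6.

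**Figure D1:**
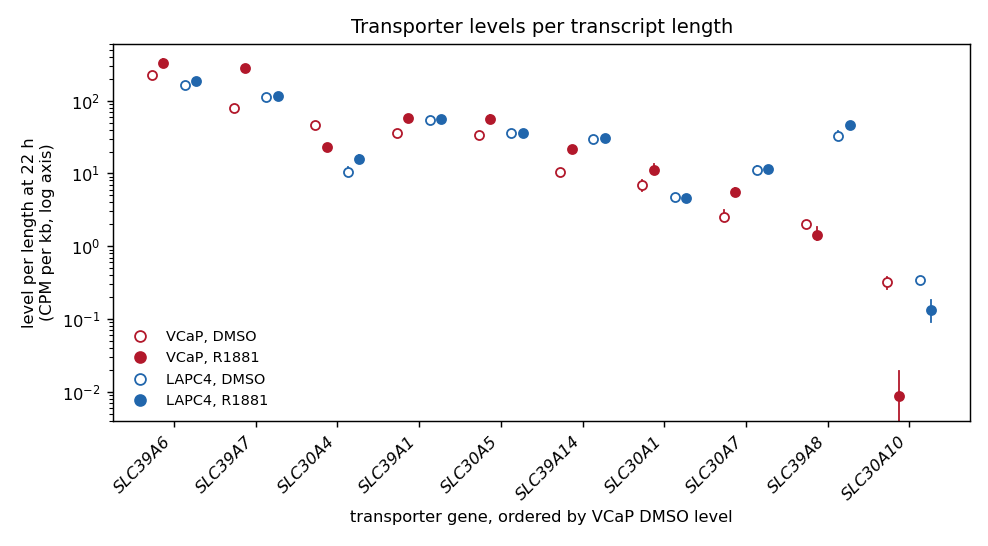
Levels per transcript length at 22 h (CPM per kb, log axis) for the 10 transporters in DMSO (open) and R1881 (filled) groups of VCaP (red) and LAPC4 (blue); points are group means and lines run from the lowest to the highest library, and the line of SLC30A10 with R1881 in VCaP runs off the axis to 0. SLC39A6 is highest in each group, SLC30A10 lowest, and SLC39A8 shows the widest gap between the lines; library sizes were scaled within each line.

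The vehicle groups at 22 h also compared the lines gene by gene, with library sizes scaled over both lines together, so that CPM values in this comparison differ from those scaled within a line. SLC39A8, a zinc and manganese importer, stood at 7.24 ± 0.42 CPM in VCaP and 97.0 ± 8.01 in LAPC4, a log2 difference (VCaP minus LAPC4) of -3.74 ± 0.064. SLC30A4, which loads zinc into vesicles, was the opposite, with 379 ± 21.1 CPM in VCaP and 70.3 ± 6.87 in LAPC4 and a difference of 2.43 ± 0.055. SLC30A7 (-1.83 ± 0.063) and SLC39A14 (-1.21 ± 0.035) were lower in VCaP, and SLC30A1 (0.83 ± 0.064) and SLC39A6 (0.75 ± 0.041) were higher. SLC39A1 (-0.29) and SLC39A7 (-0.23) differed less. SLC30A5 was called at 0.20, but its sign turned to -0.08 without a call when library totals were used without scaling factors, a setting that moved the median of all genes from -0.04 to -0.31. SLC30A10 was the member not called, at 2.46 ± 0.35 CPM in VCaP and 2.13 ± 0.16 in LAPC4. Thus 9 of 10 members differed, against 85.5% of the 16578 genes tested in both lines. Without scaling factors 8 members were called, and the share of all genes called in that fit is not given here.

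R1881 changed the transporters of VCaP cells in a split pattern at 22 h. SLC39A7, SLC30A7, SLC39A14, SLC30A5, SLC39A1, SLC30A1 and SLC39A6 were called higher, and SLC30A10, SLC30A4 and SLC39A8 were called lower. A gene was called when its adjusted p in edgeR's quasi-likelihood test, over all genes tested, was under 0.05. All 10 members were called, beside 77.4% of the 19266 genes tested in VCaP, with 7 higher beside 37.4% of all genes and 3 lower beside 40%. The median log2 fold change was 0.69 over the members and -0.03 over all genes. The DMSO and R1881 libraries did not overlap for 9 of 10 members, beside 46.8% of all genes, and SLC39A8 was the member with overlap.

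**Figure D2:**
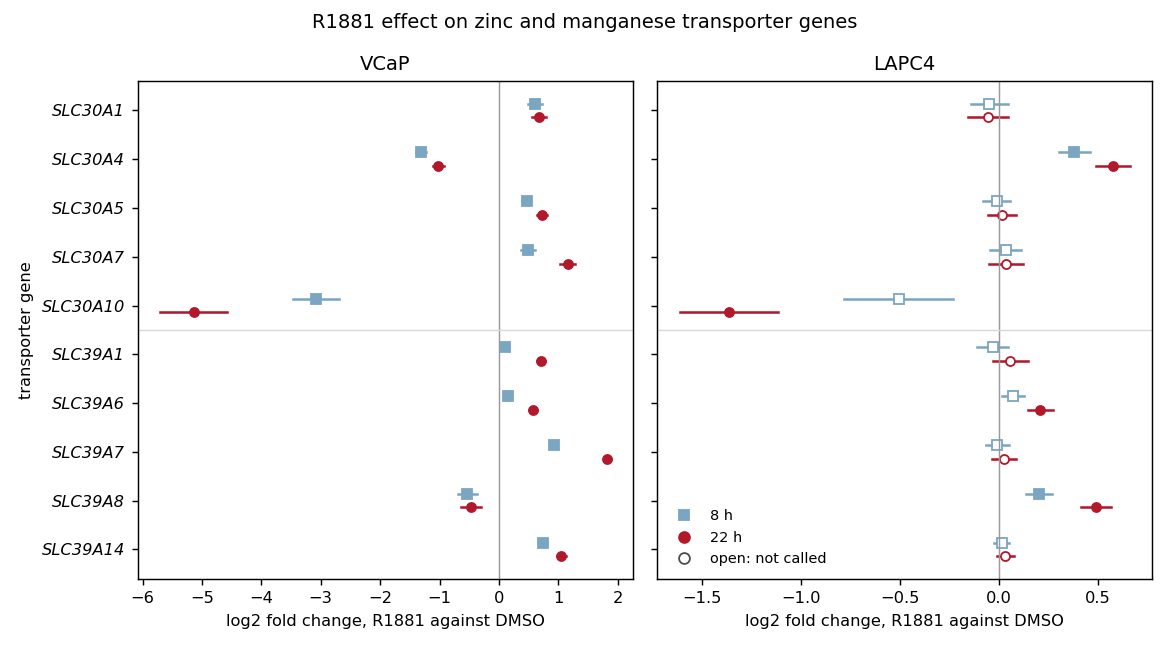
Log2 fold change of each transporter with R1881 against DMSO in VCaP (left) and LAPC4 (right, narrower axis), at 8 h (squares) and 22 h (circles); lines are 95% intervals and open symbols were not called. Every VCaP symbol is filled, with SLC30A10 farthest to the left at -5.14, whereas most LAPC4 symbols lie near 0.

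SLC30A10 (chr1:219685427-219959018, minus strand, GRCh38), the manganese exporter of the plasma membrane, had the largest change. In DMSO-treated VCaP cells at 22 h its lowest, median and highest libraries held 1.70, 2.23 and 2.45 CPM, and with R1881 they held 0, 0.062 and 0.126 CPM. Every DMSO library lay far above every R1881 library, and 3 of the 9 R1881 libraries held no read. The log2 fold change was -5.14 ± 0.29. In reads, 332 over 8 DMSO libraries stood against 9 over 9 R1881 libraries, a depth-adjusted ratio of 39.3 (95% interval 20.4 to 86.7, counting error only). At 8 h the DMSO libraries ran from 1.64 through a median of 2.02 to 2.90 CPM and the R1881 libraries from 0.045 through 0.244 to 0.448, again without overlap. The fold change was -3.09 ± 0.20 and the ratio of reads 8.62 (95% interval 6.39 to 11.9). Few reads stood behind these values, with 54 as the highest count of any VCaP library at 22 h in DMSO, so the size of the fold change rests on low counts.

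**Figure D3:**
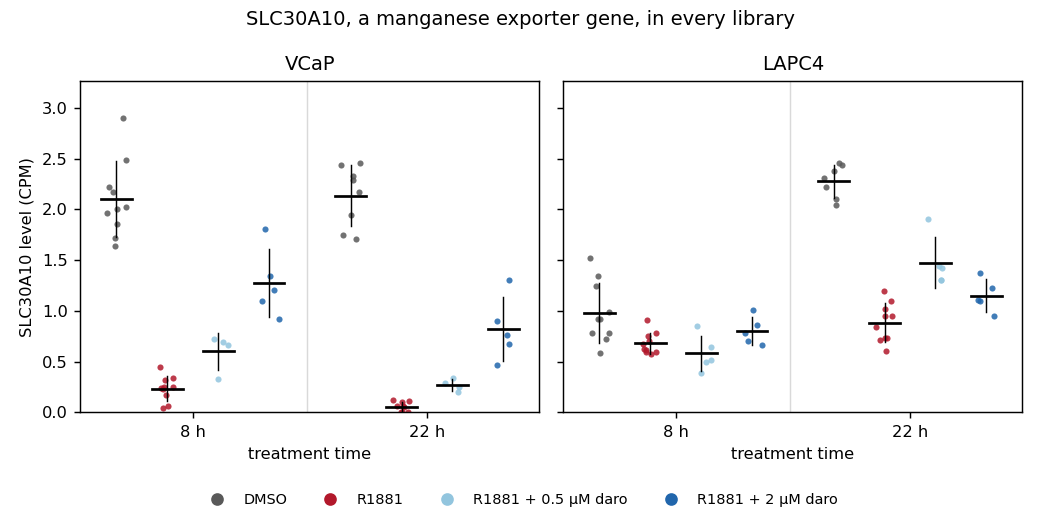
SLC30A10 level (CPM) in each library of VCaP (left) and LAPC4 (right), by treatment and time; horizontal bars are group means and vertical bars 1 SD. R1881 libraries of VCaP lie at or below 0.448 CPM at both times, and the LAPC4 DMSO libraries at 22 h lie above all other LAPC4 libraries.

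The manganese and zinc importers of the plasma membrane moved apart in VCaP cells. SLC39A14 ran from 45.6 through a median of 49.2 to 53.1 CPM in DMSO at 22 h and from 97.1 through 101 to 109 CPM with R1881, with no overlap, and its log2 fold change was 1.05 ± 0.037. SLC39A8 (chr4:102251080-102431258, minus strand) ran from 5.73 through 6.20 to 6.85 CPM in DMSO and from 3.80 through 4.35 to 5.81 CPM with R1881. Its highest R1881 library reached into the DMSO range, and its fold change was -0.47 ± 0.086. At 8 h SLC39A14 changed by 0.74 ± 0.034 and SLC39A8 by -0.53 ± 0.082.

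Among the vesicle and secretory pathway exporters, SLC30A4 (chr15:45479606-45522755, minus strand) was the one that fell. Its VCaP libraries at 22 h ran from 312 through 321 to 356 CPM in DMSO and from 144 through 163 to 182 CPM with R1881. The groups did not overlap, and the log2 fold change was -1.02 ± 0.046 at 22 h and -1.31 ± 0.043 at 8 h. SLC30A7, a Golgi exporter that supplies zinc to secreted enzymes such as alkaline phosphatase, went from 18.0, 20.7 and 26.2 CPM (lowest, median and highest) to 42.2, 46.4 and 51.8 CPM, a fold change of 1.16 ± 0.064. SLC30A5, which works in the secretory pathway in a complex with SLC30A6, rose from 134 ± 8.61 CPM (SD, n = 8) to 222 ± 14.2 (n = 9), or by 0.73 ± 0.043. SLC30A1, which exports zinc across the plasma membrane, rose from 40.6 ± 4.77 to 64.7 ± 5.76 CPM, or by 0.67 ± 0.061, and by 0.61 ± 0.056 at 8 h.

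The zinc importers other than SLC39A8 rose. SLC39A7 (ZIP7, chr6:33200305-33204439, plus strand), which releases zinc from the endoplasmic reticulum, ran from 173 through 190 to 205 CPM in DMSO and from 648 through 673 to 684 CPM with R1881 at 22 h. No library of one group came near the other, and the log2 fold change of 1.82 ± 0.030 was the largest rise among the members. SLC39A1, a plasma membrane importer, rose from 73.0 ± 4.58 to 119 ± 4.58 CPM, or by 0.71 ± 0.038. SLC39A6, which belongs to the LIV-1 group of importers, rose from 794 ± 44.1 to 1178 ± 73.7 CPM, or by 0.57 ± 0.036. At 8 h SLC39A7 had already changed by 0.93 ± 0.027, whereas SLC39A1 and SLC39A6 changed by 0.10 ± 0.035 and 0.15 ± 0.033 with overlapping libraries.

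The 8 h comparison called all 10 members in VCaP as well, beside 66.9% of all genes, and 7 were without overlap, beside 32%. The 8 h call for SLC39A1 was lost with the replicate block (0.09) and with control replicates 1 to 5 (0.09) or 6 and above (0.06) alone. The difference between the R1881 effects at the 2 time points was called for 8 members, beside 60.4% of all genes. It was largest for SLC30A10 (-2.05 ± 0.45, 22 h minus 8 h), SLC39A7 (0.89 ± 0.039), SLC30A7 (0.67 ± 0.087) and SLC39A1 (0.61 ± 0.051). SLC30A4 moved the other way, since its fall was smaller at 22 h by 0.30 ± 0.063. For SLC30A1 the difference was 0.06 ± 0.082 (95% interval -0.10 to 0.22) and for SLC39A8 0.06 ± 0.12 (-0.17 to 0.30), and neither was called. With the GC covariate the difference for SLC30A1 was called (0.18). The call for SLC30A5 (0.26) was lost with control replicates 6 and above (0.18).

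In LAPC4 cells R1881 changed 4 of 10 members at 22 h, beside 13.3% of the 18204 genes tested in that line. SLC30A4 rose, from 65.4, 73.1 and 86.6 CPM (lowest, median and highest) in DMSO to 106, 111 and 127 CPM with R1881, a log2 fold change of 0.58 ± 0.044. SLC39A8 rose from 94.0, 104 and 119 CPM to 133, 144 and 159 CPM, or by 0.49 ± 0.038. SLC39A6 rose from 583 ± 29.8 CPM (SD, n = 7) to 674 ± 30.2 (n = 10), or by 0.21 ± 0.031. SLC30A10 fell, from 2.05, 2.31 and 2.45 CPM to 0.604, 0.893 and 1.20 CPM, a fold change of -1.36 ± 0.13. For each of these 4 genes the DMSO and R1881 libraries did not overlap, beside 3.83% of all genes. In reads, SLC30A10 held 333 over 7 DMSO and 169 over 10 R1881 libraries, a ratio of 2.58 (95% interval 2.14 to 3.13). SLC30A1, SLC30A5, SLC30A7, SLC39A1, SLC39A7 and SLC39A14 were not called, with fold changes between -0.05 and 0.06. At 8 h SLC30A4 (0.38 ± 0.040) and SLC39A8 (0.20 ± 0.034) were called, or 2 of 10 beside 2.64% of all genes, and SLC30A10 stood at -0.50 ± 0.14 without a call. The ratio of its DMSO to R1881 reads at 8 h was 1.42 (95% interval 1.13 to 1.78, counting error only). With the GC covariate SLC30A10 (-0.53) and SLC39A6 (0.06) were called at 8 h as well. With control replicates 1 to 5 alone the 8 h call for SLC39A8 was lost (0.15). The R1881 effect grew between 8 and 22 h for SLC30A10 (-0.86 ± 0.19), SLC39A8 (0.29 ± 0.051) and SLC30A4 (0.20 ± 0.059), or 3 of 10 beside 3.21% of all genes. For SLC30A10 the R1881 level itself was not lower at 22 h, with 132 reads over 10 R1881 libraries at 8 h and 169 over 10 at 22 h. The DMSO libraries held 198 reads over 10 at 8 h and 333 over 7 at 22 h. The call for SLC30A10 was lost with control replicates 1 to 5 alone (-0.82) and with replicates 6 and above alone (-0.92). That for SLC39A8 was lost with replicates 6 and above (0.16). That for SLC30A4 was lost in DESeq2 (0.19), with no filter, with only the groups compared, with the replicate block and with either part of the control replicates, with values from 0.13 to 0.23.

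SLC30A4 and SLC39A8 thus fell in VCaP and rose in LAPC4, and SLC30A10 fell in both. The difference between the lines in the R1881 effect at 22 h (VCaP minus LAPC4), fitted over all libraries of both lines, was -1.65 ± 0.071 for SLC30A4, -1.02 ± 0.091 for SLC39A8 and -3.85 ± 0.34 for SLC30A10. SLC39A7 differed by 1.74 ± 0.039, SLC30A7 by 1.06 ± 0.083 and SLC39A14 by 0.96 ± 0.047, and the other 4 members by between 0.30 and 0.66. All 10 differences were called, beside 68.5% of the genes tested in both lines.

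**Figure D4:**
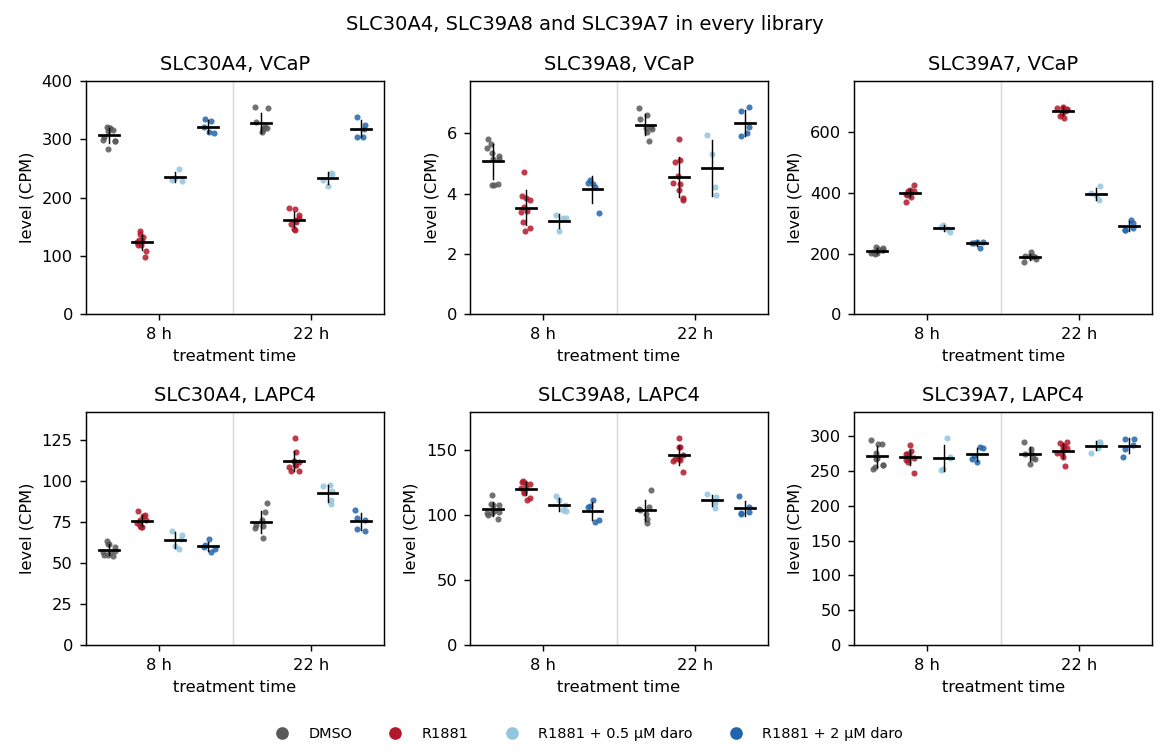
Levels (CPM) of SLC30A4, SLC39A8 and SLC39A7 in each library of VCaP (top) and LAPC4 (bottom), with a separate axis for each panel that starts at 0; horizontal bars are group means and vertical bars 1 SD. R1881 lowered SLC30A4 and SLC39A8 in VCaP and raised them in LAPC4, and SLC39A7 rose in VCaP to a mean of 669 CPM at 22 h but stayed between 246 and 297 CPM in all LAPC4 libraries.

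Darolutamide was then compared with R1881 alone. These comparisons share the R1881 libraries with those above, so the opposite directions are given side by side and are not independent. In VCaP at 22 h, 2 µM darolutamide changed all 10 members, beside 66.9% of all genes. The 7 genes that R1881 had raised were lower, beside 30.8% of all genes, and the other 3 were higher, beside 36.1%. The 5 libraries with 2 µM held 0.765, 0.672, 0.904, 1.31 and 0.469 CPM of SLC30A10, all above the R1881 libraries and below the DMSO libraries, and the change against R1881 was 3.78 ± 0.37. SLC30A4 held 304, 319, 305, 326 and 339 CPM, with 3 libraries inside the DMSO range and 2 just below it, and changed by 0.97 ± 0.052. SLC39A8 held 6.03, 6.21, 5.92, 6.88 and 6.75 CPM, of which 1 library lay just above the DMSO range and the others inside it, and changed by 0.48 ± 0.096.

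The genes that R1881 had raised did not all come back to the same point. SLC39A7 held 312, 284, 277, 302 and 277 CPM with 2 µM at 22 h, between the DMSO and R1881 libraries, and changed by -1.21 ± 0.034 against R1881. SLC39A14 held 80.2, 78.5, 74.4, 81.8 and 84.7 CPM and changed by -0.35 ± 0.041. SLC30A7 changed by -0.84 ± 0.073, SLC30A1 by -0.55 ± 0.070, SLC30A5 by -0.51 ± 0.050, SLC39A6 by -0.45 ± 0.041 and SLC39A1 by -0.33 ± 0.043. Expressed as a share of the DMSO mean, SLC39A14 stood at 207% with R1881 and 162% with R1881 plus 2 µM, SLC39A7 at 354% and 153%, SLC39A1 at 163% and 130%, and SLC30A7 at 223% and 124%. SLC30A1, SLC39A6 and SLC30A5 stood at 109%, 108% and 116% with 2 µM.

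**Figure D5:**
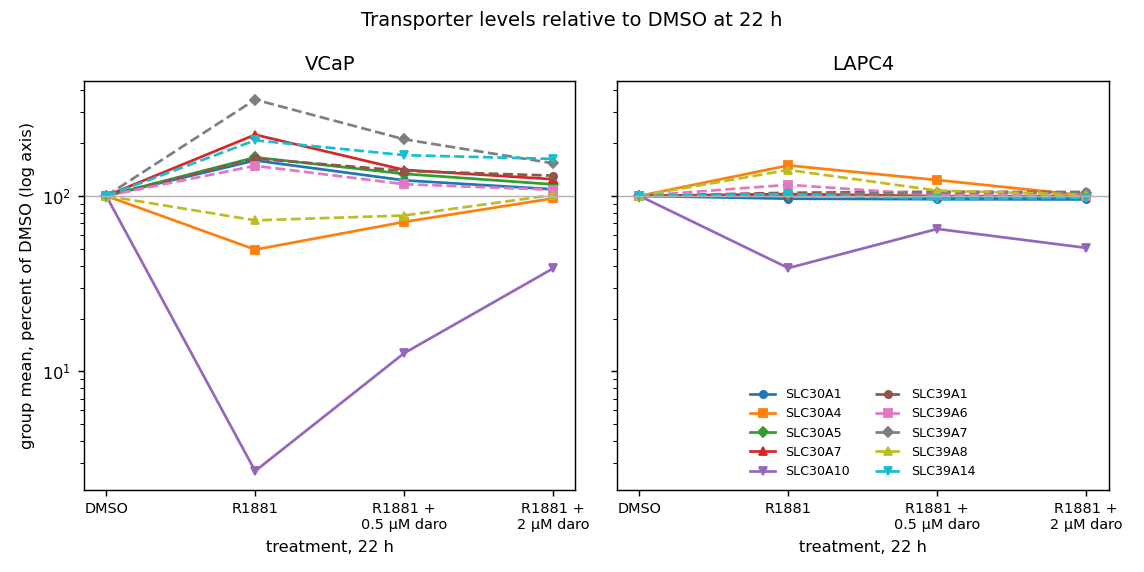
Group means at 22 h as a percent of the DMSO group of the same line (log axis) for R1881 and for R1881 with 0.5 µM or 2 µM darolutamide; solid lines are SLC30 exporters and dashed lines SLC39 importers. In VCaP most lines turn back toward 100% with the dose, and SLC30A10 goes from 2.71% with R1881 to 38.6% with 2 µM.

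Set against DMSO directly, 2 µM darolutamide plus R1881 left 7 of 10 members apart in VCaP at 22 h, beside 59% of all genes. They were SLC39A14 (0.70 ± 0.042), SLC39A7 (0.62 ± 0.033), SLC39A1 (0.38 ± 0.043), SLC30A7 (0.32 ± 0.075), SLC30A5 (0.22 ± 0.050), SLC39A6 (0.12 ± 0.041) and SLC30A10 (-1.36 ± 0.20). The call for SLC39A6 was lost when darolutamide replicate 1, 2, 4 or 5 was left out, with values between 0.08 and 0.10, and also with no filter, the replicate block or control replicates 6 and above. SLC30A4 (-0.05 ± 0.054), SLC39A8 (0.01 ± 0.096) and SLC30A1 (0.12 ± 0.071) were not called. At 8 h the same comparison called 5 members, beside 27.5% of all genes, and the largest differences were SLC30A10 at -0.70 ± 0.18 and SLC39A8 at -0.29 ± 0.099. The call for SLC39A8 was lost without darolutamide replicate 1 (-0.22) and with control replicates 6 and above (-0.22). That for SLC30A5 (0.16) was lost without darolutamide replicate 4 or 5, with the replicate block and with control replicates 1 to 5, where it was lowest at 0.10.

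The lower dose of 0.5 µM changed 9 of 10 members against R1881 in VCaP at 22 h, beside 53% of all genes. SLC30A10 held 0.339, 0.203, 0.287 and 0.254 CPM in the 4 libraries, all above R1881 and below 2 µM, with a change of 2.20 ± 0.50. SLC30A4 held 220, 243, 231 and 241 CPM (0.52 ± 0.056) and SLC39A7 held 392, 376, 400 and 423 CPM (-0.75 ± 0.036), each between the R1881 and the 2 µM libraries. SLC39A8 held 5.33, 4.21, 5.94 and 3.96 CPM and was not called (0.10 ± 0.11). The direct comparison of 2 µM with 0.5 µM at 22 h called 5 members, beside 20.2% of all genes, namely SLC30A10 (1.58 ± 0.33), SLC30A4 (0.45 ± 0.064), SLC39A7 (-0.45 ± 0.039), SLC39A8 (0.38 ± 0.12) and SLC30A5 (-0.20 ± 0.059). The call for SLC39A8 was lost with the replicate block (0.36) and without darolutamide replicate 2 (0.30) or 4 (0.24), and that for SLC30A5 without replicate 3 (-0.18). SLC39A14 and SLC39A1 differed between the doses by -0.07 ± 0.049 and -0.09 ± 0.051, without a call.

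At 8 h in VCaP, 2 µM darolutamide changed 9 of 10 members against R1881, beside 52.1% of all genes, and 0.5 µM changed 6, beside 30.6%. The count of 9 fell to 7 or 8 when any darolutamide replicate was left out and to 8 in DESeq2, since SLC39A1 (-0.10 ± 0.043) and SLC39A8 (0.24 ± 0.10) lost their calls in most alternatives. At 0.5 µM the call for SLC30A5 (-0.15 ± 0.052) was lost when any 1 of the 4 darolutamide replicates was left out, and that for SLC30A10 was lost with the replicate block. SLC30A4 held 310, 331, 313, 336 and 321 CPM with 2 µM and 249, 231, 234 and 228 CPM with 0.5 µM, against a highest R1881 library of 143 CPM. SLC30A10 held 0.919, 1.21, 1.35, 1.81 and 1.10 CPM with 2 µM and 0.689, 0.723, 0.332 and 0.664 CPM with 0.5 µM. SLC39A6 was the member not called with 2 µM at 8 h (0.06 ± 0.040), and its mean relative to DMSO was 111% with R1881, 117% with 0.5 µM and 115% with 2 µM. It was called higher with the GC covariate (0.05) and with only the groups compared (0.09). The dose comparison at 8 h called 6 members, beside 17.6% of all genes, with the largest difference for SLC30A10 (1.07 ± 0.27). Of these, SLC30A5 (-0.16), SLC39A14 (-0.18) and SLC39A8 (0.41) lost their calls with the replicate block and without darolutamide replicate 3, and SLC30A5 also in DESeq2, with no filter and when any other darolutamide replicate was left out.

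In LAPC4 at 22 h, 2 µM darolutamide changed 4 of 10 members against R1881, beside 10.5% of all genes. SLC30A4 held 77.9, 76.7, 70.7, 82.8 and 69.8 CPM, all below the R1881 libraries and within the DMSO range, a change of -0.57 ± 0.049. SLC39A8 held 102, 106, 101, 115 and 102 CPM, with a change of -0.47 ± 0.043. SLC39A6 changed by -0.21 ± 0.035 and SLC39A14 by -0.07 ± 0.023, a call that was lost in DESeq2, with no filter, with only the groups compared, with the replicate block, with control replicates 6 and above and when darolutamide replicate 1, 3, 4 or 5 was left out. The lower dose changed 5 members, beside 5.89% of all genes: SLC39A8 (-0.39 ± 0.043), SLC30A4 (-0.28 ± 0.048), SLC39A6 (-0.19 ± 0.035), SLC39A14 (-0.09 ± 0.023) and SLC30A10 (0.74 ± 0.15). The call for SLC30A10 was lost with the replicate block (0.63), and that for SLC39A14 with no filter, with control replicates 6 and above and without darolutamide replicate 5 (-0.08 in each). Between the doses, SLC30A4 differed by -0.29 ± 0.056, the single member called beside 0.258% of all genes, and this call was lost with only the groups compared, with the replicate block and without replicate 3 (-0.26).

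For SLC30A10 in LAPC4 the difference between the doses had opposite signs at the 2 time points, without a call at either. Whether the dose difference changed with time was not tested for this gene. At 8 h its mean was 0.580 ± 0.17 CPM with 0.5 µM and 0.805 ± 0.14 CPM with 2 µM (SD, n = 5 each), a difference of 0.49 ± 0.20 without a call. At 22 h its libraries held 1.30, 1.91, 1.42, 1.45 and 1.30 CPM with 0.5 µM and 1.38, 1.22, 1.10, 1.10 and 0.951 CPM with 2 µM, and both groups lay below every DMSO library, the lowest of which held 2.05 CPM. The 2 µM libraries overlapped with those of R1881 alone (0.38 ± 0.16, not called), and the difference between the doses was -0.36 ± 0.17 (not called). Against DMSO the 2 µM group stood at -0.99 ± 0.15. This was 1 of 3 genes called in that comparison, or 0.0165% of all genes tested, and the call was lost when the controls were limited to replicates 6 and above (-1.04).

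At 8 h in LAPC4, 2 µM darolutamide lowered SLC30A4 (-0.33 ± 0.049) and SLC39A8 (-0.22 ± 0.042) against R1881, or 2 of 10 members beside 1.54% of all genes, and 0.5 µM lowered SLC30A4 (-0.24 ± 0.049), or 1 beside 0.626%. With the replicate block the calls for SLC39A8 at 2 µM (-0.19) and for SLC30A4 at 0.5 µM (-0.26) were lost. SLC39A8 was not called at 0.5 µM (-0.16). It was called in DESeq2 (-0.16), with the GC covariate (-0.17) and with only the groups compared (-0.16). The same held with control replicates 6 and above (-0.20) and without darolutamide replicate 2 (-0.18). In the comparisons of 2 µM with 0.5 µM and with DMSO at 8 h edgeR called 0 members, beside 0.0275% and 0.011% of all genes, with 1 and 0 members at an unadjusted p under 0.05 and 0 and 0 called by DESeq2.

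Time in vehicle alone moved some members. In LAPC4 SLC30A10 was higher at 22 h than at 8 h, with 0.584, 0.916 and 1.52 CPM (lowest, median and highest) at 8 h against 2.05, 2.31 and 2.45 CPM, a log2 difference of 1.21 ± 0.12 without overlap. SLC30A4 rose by 0.37 ± 0.043 and SLC30A1 fell by 0.17 ± 0.052 in the same comparison, which called 3 of 10 members beside 22.1% of all genes, and the call for SLC30A1 was lost with the replicate block (-0.19) and with control replicates 6 and above (-0.14). In VCaP SLC30A10 stood at 0.03 ± 0.15 over time, and SLC30A1 (0.33 ± 0.060), SLC39A6 (0.33 ± 0.034), SLC39A8 (0.31 ± 0.082), SLC39A1 (0.17 ± 0.037) and SLC39A7 (-0.15 ± 0.028) were called, or 5 of 10 beside 29.8%. The call for SLC39A8 was lost with control replicates 1 to 5 (0.16) and that for SLC39A1 with replicates 6 and above (0.13). The R1881 effect on SLC30A10 in LAPC4 at 22 h was thus measured against a DMSO level that had itself changed since 8 h.

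The other genes of zinc handling came from lists written with earlier results known, and beyond those with the largest changes they are named after their values were seen. Adjusted p-values given for listed genes here and below cover all genes tested and do not account for this choice. Of 5 further SLC30 genes, 4 were tested in VCaP and all 4 were called with R1881 at 22 h, beside 77.4% of all genes. SLC30A2, which loads zinc into secretory vesicles, rose from 0.347 ± 0.18 CPM (SD, n = 8) to 1.88 CPM, a log2 fold change of 2.44 ± 0.23 (edgeR adjusted p = 2.15e-14). SLC30A3, a vesicle transporter best known from neurons, fell from 0.257 to 0.038 CPM (-2.66 ± 0.66, edgeR adjusted p = 0.000307), so both lie near the detection limit. SLC30A9 (-0.31 ± 0.036) and SLC30A6 (0.11 ± 0.043) changed less. Of 9 further SLC39 genes, 6 were tested and 4 were called, again beside 77.4% of all genes. SLC39A3 (1.02 ± 0.11, edgeR adjusted p = 1.02e-12), SLC39A10 (0.65 ± 0.054) and SLC39A9 (0.46 ± 0.039) rose, and SLC39A11 (-0.27 ± 0.11) fell. SLC39A3 was not called with 2 µM darolutamide, with 12.8 CPM in both groups and a change of -0.01 ± 0.11 against R1881, whereas SLC39A10 (-0.61 ± 0.063) and SLC39A9 (-0.36 ± 0.045) fell. In LAPC4, where 2 of these SLC30 and 6 of these SLC39 genes were tested at 22 h, the largest difference was that of SLC39A4 (0.35 ± 0.23, edgeR adjusted p = 0.405).

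Metallothioneins, the small zinc-binding proteins that MTF1 controls, moved differently at the 2 time points in VCaP. Of 13 listed genes, 7 were tested. At 8 h 5 of the 7 were called, beside 66.9% of all genes, and all 5 fell, among them MT2A (-0.72 ± 0.22, edgeR adjusted p = 0.0034) and MT1E (-0.50 ± 0.12, edgeR adjusted p = 0.00014). At 22 h 4 rose, namely MT1L (1.05 ± 0.31), MT1F (1.01 ± 0.15), MT1X (0.84 ± 0.13) and MT1G (0.80 ± 0.20), and MT3 fell (-1.51 ± 0.28), or 5 of 7 beside 77.4%. The change of the effect between the times was called for 6 of the 7, beside 60.4% of all genes, from 0.55 ± 0.17 for MT1E to 1.86 ± 0.44 for MT1L, and MT3 was the exception. The rise of SLC30A1 was 0.61 at 8 h and 0.67 at 22 h. MTF1 itself did not pass the test at 22 h, with 24.1 CPM in DMSO and 24.2 CPM with R1881. MT1L is annotated as a pseudogene. Over all VCaP libraries MT1L, MT1G and MT3 had medians of 0.434, 0.628 and 0.661 CPM, so their values lie near the detection limit. Metallothionein genes are near-identical copies, and how reads that fit several copies were counted is not stated, so values of single copies are uncertain. In LAPC4 4 metallothionein genes were tested, and the largest difference at 22 h was that of MT1G (0.64 ± 0.27, edgeR adjusted p = 0.124).

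Of 10 genes of manganese and iron handling, 9 were tested in VCaP and 6 were called with R1881 at 22 h, beside 77.4% of all genes. ATP2C1, the calcium and manganese pump of the Golgi apparatus, fell from 860 to 432 CPM (-0.99 ± 0.041, edgeR adjusted p = 4.07e-29), and 2 µM darolutamide raised it again by 0.77 ± 0.046. At 8 h it had instead risen with R1881, by 0.25 ± 0.038. TMEM165, another Golgi protein of manganese supply, rose by 0.57 ± 0.045 and ATP2C2 by 0.59 ± 0.084. SOD2, the manganese-dependent superoxide dismutase of mitochondria, fell by 0.37 ± 0.046. SLC40A1, the iron exporter ferroportin, fell in VCaP (-0.42 ± 0.068) and in LAPC4 (-0.32 ± 0.043, edgeR adjusted p = 5.39e-08). TFRC, the transferrin receptor, rose with R1881 in VCaP (0.39 ± 0.044) and was higher again with 2 µM darolutamide than with R1881 alone (0.42 ± 0.050), while in LAPC4 the same comparisons gave 0.18 ± 0.041 and -0.16 ± 0.045. Of the zinc sensors and other zinc proteins, TMEM163, a zinc efflux protein, fell in VCaP from 0.457 to 0.083 CPM (-2.38 ± 0.37, edgeR adjusted p = 9.05e-08).

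The 5 genes of citrate handling were all tested. In VCaP at 22 h SLC25A1, the mitochondrial citrate carrier, rose by 0.80 ± 0.092 and ANKH, which has been linked to citrate export, by 0.25 ± 0.028, while CS, citrate synthase, fell by 0.07 ± 0.031. At 8 h the rise of ANKH had been larger, from 104 to 485 CPM (2.22 ± 0.026, edgeR adjusted p = 1.19e-55). In LAPC4 ANKH was called at 22 h, from 37.6 to 51.2 CPM (0.45 ± 0.034, edgeR adjusted p = 4.16e-16), and 2 µM darolutamide moved it back (-0.47 ± 0.038). Over all 47 listed genes other than the members, 26 of 35 tested were called in VCaP and 4 of 29 in LAPC4 with R1881 at 22 h, or 74.3% and 13.8%, beside 77.4% and 13.3% of all genes.

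SLC30A10 had the largest R1881 change among the members in each line, and genes with the most similar pattern over the 8 group means of log2 CPM were looked up. In VCaP, among 1916 genes whose group means varied enough to be compared, these were GPR85 (Pearson's r = 0.998), SHH (0.997) and CDC14A (0.996). In LAPC4, among 633 genes, they were ACBD7 (0.956), HEG1 (0.941) and CABP4 (0.934). The 8 points share their libraries across genes, and these values are descriptions.

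Reads of some members may not be separable from those of overlapping genes. The library kit marks strand, but the counting is not stated to have used it. Shared bases were counted over whole gene spans, introns included, and overlap of exons was not examined. SLC30A4 shares 11620 bases with HMGN2P46 on the opposite strand, which went from 18.5 to 10.9 CPM with R1881 in VCaP at 22 h (-0.77 ± 0.080) and stood at -0.07 ± 0.058 in LAPC4, where SLC30A4 rose. SLC39A1 shares 651 bases with CREB3L4, which rose in VCaP from 168 to 438 CPM (1.38 ± 0.031), and SLC39A7 shares 361 bases with RXRB, which fell by 0.25 ± 0.037 while SLC39A7 rose. On the same strand, where a strand setting would not separate the reads, SLC39A1 shares 9034 bases with the protein-coding gene ENSG00000285779. SLC39A8 shares 12657 bases with the lncRNA ENSG00000248161, and SLC39A6 shares 1295 with the lncRNA ENSG00000288917. On the opposite strand SLC30A4 also shares 34162 bases with the lncRNA SLC30A4-AS1, and SLC30A5 shares 17961 with the lncRNA ENSG00000248664. ENSG00000285779 and ENSG00000248161 were not matched to a row of the count table, and no level is given for the other lncRNAs. The part of these neighbours in the transporter values was not tested.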

How the data were processed

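RNA from VCaP and LAPC4 cells was sequenced by the authors from poly-A libraries, and reads were aligned with STAR to GRCh38 and counted per gene with featureCounts. The annotation and the strand setting are not given in the sources used here. The deposited table holds raw counts for 58684 gene rows and 112 libraries, with 12188455 to 25201678 reads on genes each. A gene was tested in a line when 4 or more of its libraries held 10 or more reads, which left 19266 genes in VCaP and 18204 in LAPC4. Counts were scaled by TMM and tested with edgeR 4.0.16 (R 4.3.3) by glmQLFit and glmQLFTest, with the 8 groups of a line in 1 fit, and with all 16 groups in 1 fit for comparisons between lines. The p-values were adjusted by the Benjamini-Hochberg method over all genes tested, and a gene was called under 0.05. CPM values use the TMM library sizes of their line, and those set side by side between the lines use the TMM sizes of the fit over both lines. Standard errors were taken from the log2 fold change and its F statistic. Counting intervals cover counting error only.

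The transporters and gene lists were chosen with earlier results of these data known, so the members carry no p-values. Other listed genes were named where they passed an absolute log2 fold change of 1 or were the largest called rise or fall of their list with R1881 at 22 h, and others after their values were seen. Some genes are not reported here. The fit was first tested on simulated data. Replicates were checked for repeated deposits, and every pair within a group differed by more than sampling noise (chi-square per degree of freedom at least 1.47). Alternatives were DESeq2 1.42.0, no filter, only the groups compared, either part of the control replicates, a replicate block, a GC covariate, leaving out each darolutamide replicate and, added after seeing the data and for the comparisons between lines, library totals without TMM factors. Promoter sequences and start sites came from RefSeq and gene positions from GENCODE on GRCh38.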

Additional observations from a re-analysis of the deposited data

Results flagged for a closer look

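Dixon's test was run in 160 combinations of a transporter and a group of 4 to 10 libraries, and in 10 of them the highest or lowest library stood apart from the others, where chance alone gives about 1 in 20. The values below are the gap to the nearest library divided by the range of the group, both in log2 CPM. Levels printed beside them are in CPM and do not give the same ratio. In VCaP they were SLC30A1 with 0.5 µM darolutamide at 22 h (0.921, lowest library, 45.7 CPM against 51.0 to 51.5), SLC30A1 with R1881 at 22 h (0.591, highest library, 78.7 CPM against 59.1 to 66.5), SLC30A10 with 0.5 µM at 8 h (0.883, lowest library, 0.332 CPM against 0.664 to 0.723), SLC39A1 with 0.5 µM at 8 h (0.862, highest library), SLC39A6 with 0.5 µM at 8 h (0.878, highest library), SLC39A7 with 2 µM at 8 h (0.78, lowest library) and SLC39A8 with 2 µM at 8 h (0.818, lowest library, 3.37 CPM against 4.23 to 4.45). In LAPC4 they were SLC30A5 with R1881 at 8 h (0.636, lowest library), SLC30A10 with 0.5 µM at 22 h (0.728, highest library, 1.91 CPM against 1.30 to 1.45) and SLC39A14 with R1881 at 22 h (0.477, lowest library).

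The R1881 effect differed between 8 and 22 h by the interaction term of the edgeR fit. In VCaP the differences (22 h minus 8 h, log2) were 0.30 for SLC30A4, 0.26 for SLC30A5, 0.67 for SLC30A7, -2.05 for SLC30A10, 0.61 for SLC39A1, 0.42 for SLC39A6, 0.89 for SLC39A7 and 0.31 for SLC39A14. In LAPC4 they were 0.20 for SLC30A4, -0.86 for SLC30A10 and 0.29 for SLC39A8.

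The R1881 effect at 22 h also differed between the lines by the same kind of term. The differences (VCaP minus LAPC4, log2) were 0.66 for SLC30A1, -1.65 for SLC30A4, 0.65 for SLC30A5, 1.06 for SLC30A7, -3.85 for SLC30A10, 0.59 for SLC39A1, 0.30 for SLC39A6, 1.74 for SLC39A7, -1.02 for SLC39A8 and 0.96 for SLC39A14.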

How the results depend on the processing

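Among the called transporters SLC30A5 changed direction in 1 comparison, the DMSO groups of the lines at 22 h, from 0.196 to -0.0767 with library totals without TMM factors, an alternative chosen after seeing the data, and no other changed direction under an alternative. Under the alternatives 244 counts of called members stayed within 1.5 times the reported count and 18 did not. For these the cause was not tested. The counts here and in the next paragraph are given without the share of all genes called in the same fit. They do not show whether the members alone moved. The dose comparison in VCaP called 8 members at 22 h (reported 5) with the GC covariate and with only the groups compared. The GC covariate also gave 4 members in LAPC4 with R1881 at 8 h (reported 2), 2 with 0.5 µM darolutamide at 8 h (reported 1), and 8, 2 and 9 other pathway genes in LAPC4 with R1881 at 22 h, with R1881 at 8 h and with 2 µM against R1881 at 22 h (reported 4, 1 and 5). Control replicates 1 to 5 alone gave 1 member in LAPC4 with R1881 at 8 h. Control replicates 6 and above gave 0 members in LAPC4 for 2 µM against DMSO at 22 h (reported 1) and for the R1881 effect over time (reported 3), and 2 for 0.5 µM at 8 h. For 0.5 µM at 8 h, DESeq2 and the fit of only the groups compared also gave 2, and in LAPC4 between the doses at 22 h that fit gave 0 (reported 1). Leaving out each darolutamide replicate gave 3 to 5 members for the doses in VCaP at 8 h (reported 6, and 3 without replicate 3), 0 to 1 for the doses in LAPC4 at 22 h (0 without replicate 3) and 1 to 2 for 0.5 µM in LAPC4 at 8 h (2 without replicate 2).

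Replicate numbers are shared between groups, but nothing says that a number marks a shared culture. Over 149 same-numbered pairs in VCaP the deviations from the group means correlated at -0.017 on average, and 6 of 55 libraries correlated best with their own number. Over 161 such pairs in LAPC4 the average was 0.130, and 10 of 57 libraries did. With the replicate block, 3 members were called between the doses in VCaP at 8 h, 0 in LAPC4 at 22 h, 1 in LAPC4 for 2 µM against R1881 at 8 h (with 0 other pathway genes) and 0 for 0.5 µM at 8 h. The precision is lowest for SLC30A10, with at most 54 reads in a VCaP DMSO library.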
